A study of Mus musculus with 23 samples.

Results

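The genes described here carry peptides to the cell surface on major histocompatibility complex (MHC) class I molecules: 10 genes, matched by symbol to the gene identifiers of the files, of 55487 identifiers in all. They are the heavy chains H2-K1 and H2-D1, their light chain B2m, the peptide transporter Tap1 and Tap2, the loading factor Tapbp, the immunoproteasome subunits Psmb8, Psmb9 and Psmb10, and the class I transactivator Nlrc5. The genes were chosen by pathway, with earlier results of these data known, and all 10 were among the 15732 genes with enough reads to be tested.

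Poly-A RNA of whole hearts was sequenced from female wild-type C57BL/6J mice, an inbred laboratory strain, 10 weeks old. Mice of the ISO arm were given 300 mg/kg of isoproterenol, which activates beta-adrenergic receptors, and their hearts were collected on day 1 (3 libraries) or day 7 (4 libraries). Mice of the LPS arm were given 2.5 mg/kg of lipopolysaccharide, a bacterial cell wall component that immune cells and heart cells sense, with 4 libraries on each of the same days. Each arm had its own baseline of 4 untreated mice, so that 23 libraries fell into 6 groups. Each library is taken as a separate mouse, so a p-value measures the spread between these samples. The 6 cardiomyocyte markers summed to means of 42023 to 62406 CPM (counts scaled to library size) in the 6 groups. Estimated reads per library totalled 20910393 to 30368985. In ISO day 7 replicate 3, the pan-leukocyte markers summed to 52.1 CPM against 25.2 to 29.4 CPM in the other libraries of that group, the macrophage markers to 116 CPM against 56.9 to 66.6 CPM and the fibroblast markers to 1063 CPM against 434 to 480 CPM, and this library had the highest level of its group for 9 of the 10 genes.

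MHC class I molecules sit on nearly all nucleated cells and show peptides from inside the cell to CD8 T cells, while natural killer cells sense their loss. Proteasomes cut proteins into peptides, and the immunoproteasome forms when Psmb8, Psmb9 and Psmb10 take the places of the constitutive catalytic subunits Psmb5, Psmb6 and Psmb7. Peptides pass into the endoplasmic reticulum through the Tap1 and Tap2 transporter, and tapasin, the product of Tapbp, holds it beside empty heavy chains paired with beta-2 microglobulin. Interferons are textbook inducers of this whole path, acting in part through interferon regulatory factors (IRF). Nlrc5 acts on class I promoters through the conserved X and Y boxes.

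Of the 10 genes, 7 lie on chromosome 17 in the MHC region (GENCODE M21, GRCm38). In genome order these were Tapbp (chr17:33915899-33929292), H2-K1 (chr17:33996017-34000347), Psmb9 (chr17:34181987-34187764), Tap1 (chr17:34187553-34197225), Psmb8 (chr17:34197721-34201454), Tap2 (chr17:34203527-34216321) and H2-D1 (chr17:35262730-35267499). B2m stands apart (chr2:122147686-122153083), and so do Nlrc5 (chr8:94434356-94527272) and Psmb10 (chr8:105935735-105938444). Tap1 and Psmb9 lie head to head, and their gene models overlap by 212 bases on opposite strands. Tapbp overlaps Zbtb22 on the same strand by 3422 bases. The strand setting of the counting is not given in the sources used here, so reads from overlapping or antisense partners cannot be told apart.

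Promoter sequences are shown because the classical class I genes and B2m share a set of short motifs, and because Tap1 and Psmb9 share a promoter stretch although their levels moved apart in these hearts. RefSeq (GRCm38.p6) gave the 250 bases before a start of 8 of the 10 genes. Where it held several starts of a gene, the one at the highest coordinate was used. These starts can differ from the ends of the gene models above: the windows of H2-D1, Tapbp, Psmb8 and Psmb9 lie inside those models. Capitals mark matches, on either strand, to an IRF core (AANNGAAA), a CCAAT box as found in Y boxes (CCAAT), the core of the X2 box (TGACG), a gamma-activated site (TTCNNNGAA) or a kappaB site, and each sequence is written 5′ to 3′ along the gene's own strand.
H2-K1, chr17:34000348-34000597, minus strand: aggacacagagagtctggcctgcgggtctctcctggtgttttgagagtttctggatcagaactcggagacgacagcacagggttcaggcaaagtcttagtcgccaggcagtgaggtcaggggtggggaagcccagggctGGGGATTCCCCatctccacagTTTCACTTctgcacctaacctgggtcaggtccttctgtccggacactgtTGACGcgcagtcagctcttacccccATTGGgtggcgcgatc
H2-D1, chr17:35262844-35263093, plus strand: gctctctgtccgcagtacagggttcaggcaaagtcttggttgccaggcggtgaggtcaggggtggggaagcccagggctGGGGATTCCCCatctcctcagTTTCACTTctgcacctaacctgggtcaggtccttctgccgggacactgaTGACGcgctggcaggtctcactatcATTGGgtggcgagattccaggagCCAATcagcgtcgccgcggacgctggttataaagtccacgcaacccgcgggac
B2m, chr2:122147437-122147686, plus strand: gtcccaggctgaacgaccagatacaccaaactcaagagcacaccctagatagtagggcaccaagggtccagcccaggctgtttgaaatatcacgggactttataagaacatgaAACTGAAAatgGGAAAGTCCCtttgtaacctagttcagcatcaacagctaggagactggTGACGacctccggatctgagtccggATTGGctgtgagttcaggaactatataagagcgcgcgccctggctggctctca
Tap1, chr17:34187306-34187555, plus strand: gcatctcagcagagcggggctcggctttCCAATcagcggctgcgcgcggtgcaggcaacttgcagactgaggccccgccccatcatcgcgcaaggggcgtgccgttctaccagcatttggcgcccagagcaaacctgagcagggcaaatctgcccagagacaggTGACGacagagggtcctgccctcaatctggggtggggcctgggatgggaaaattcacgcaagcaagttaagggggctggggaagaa
H2-K1, H2-D1 and B2m each held a kappaB match, an IRF core, an X2 core and a CCAAT box. Reading towards the start, they came in that order in H2-K1 and H2-D1, and with the IRF core ahead of the kappaB match in B2m. In H2-K1 and H2-D1 the kappaB capitals are 2 overlapping matches, and the 2 windows were identical at 91% of 177 aligned positions. The Tap1 and Psmb9 windows were 225 bases of the same DNA read from opposite strands, and both held the same X2 core and CCAAT box. The IRF core was found in 3 of the 8 windows against 21.3% of 32851 RefSeq windows of this length, the kappaB motif in 3 of 8 against 3.9%, the X2 core in 5 of 8 against 17.8%, and the CCAAT box in 6 of 8 against 33.8%. The gamma-activated site was found in the Psmb8 window alone of these 8, against 7.02% of all windows. The sites shared by Tap1 and Psmb9 are counted for both genes, so the 8 windows are not 8 separate promoters. These motifs were chosen with the sequences in view, and a match describes letters, not binding.

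Levels are given in TPM (a level per transcript length, scaled to the same total in each library), and at baseline they spanned a wide range. B2m stood highest at 263 ± 14.9 TPM (SD, n = 4) in ISO baseline hearts and 249 ± 18.5 TPM (SD, n = 4) in LPS baseline hearts. H2-K1 and H2-D1 followed at 118 and 85 TPM in ISO baseline hearts, then Tapbp at 38.5, Psmb10 at 26, Psmb8 at 11.8, Tap2 at 10.9, Psmb9 at 4.16 and Tap1 at 3.5. Nlrc5 was lowest, at 0.724 ± 0.212 TPM (SD, n = 4). Between the untreated groups edgeR called 0 of the 10 genes, against 1.21% of all genes called in either direction. The log2 differences were -0.10 to 0.30, with adjusted p of at least 0.474 by edgeR. Tap2 libraries nevertheless did not overlap, at 10.3 to 11.5 TPM in ISO baseline and 12.5 to 14.1 TPM in LPS baseline. Its log2 difference was 0.19, with a 95% interval of 0.01 to 0.36.

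**Figure D1:**
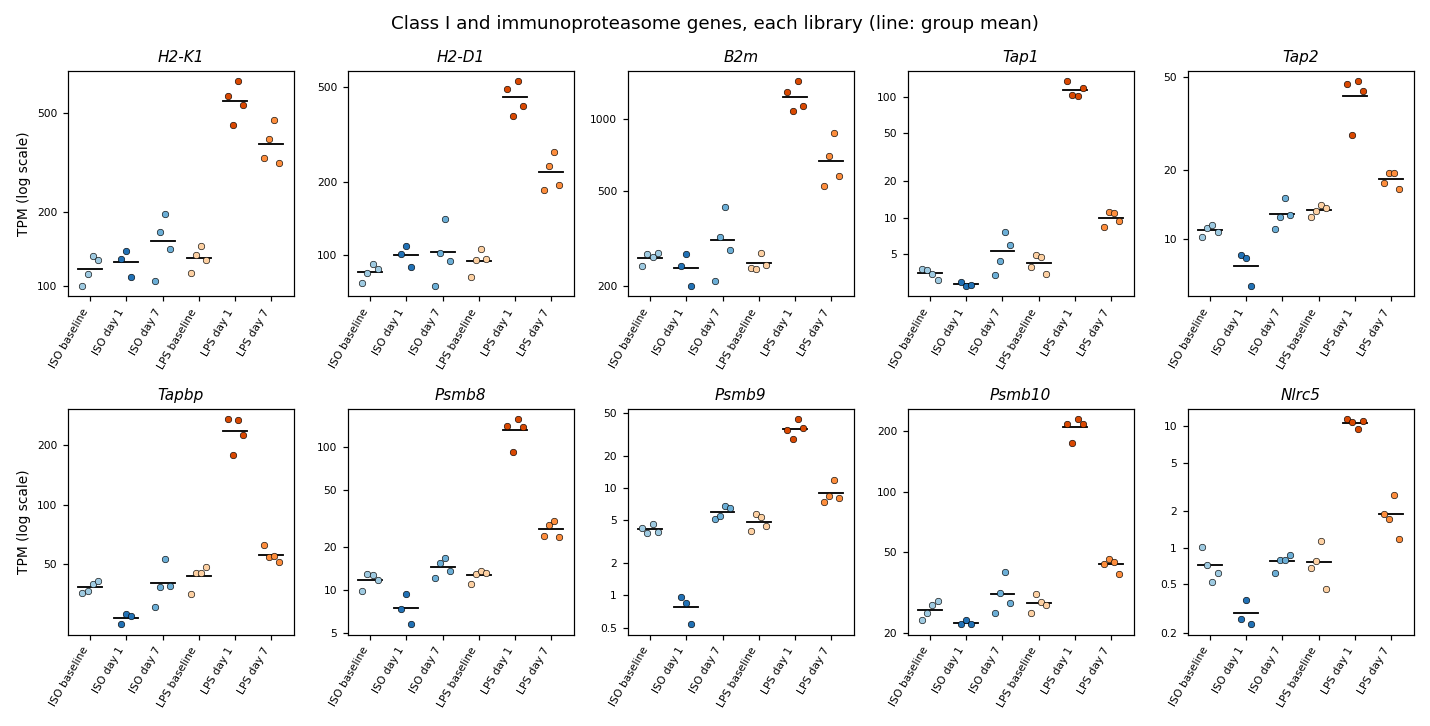
Level of each gene (TPM, log scale) in each of the 23 libraries by group, with points for libraries and a line for the group mean. The LPS day 1 mean is the highest for all 10 genes, with H2-K1 libraries of LPS day 7 reaching into its range. The ISO day 1 libraries lie below all others for Tap1, Tap2, Tapbp, Psmb8, Psmb9, Psmb10 and Nlrc5, narrowly so for Psmb10.

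On day 1 after lipopolysaccharide, all 10 genes were higher than at baseline, by 3.1-fold for Tap2 to 27.3-fold for Tap1 in mean TPM. The call was an adjusted p under 0.05 in edgeR, which 33.2% of all genes reached in the higher and 33% in the lower direction. The median log2 change of the 10 genes was 2.60, beside 0.00 over all genes.

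The heavy and light chains rose by similar amounts. H2-K1, a classical heavy chain, stood at 113, 134, 145 and 127 TPM at LPS baseline and at 586, 447, 674 and 537 TPM on day 1, a log2 change of 2.13 (SE 0.13, adjusted p = 2.16e-12 by edgeR). H2-D1, the other classical heavy chain of this strain, went from 81.4, 95.4, 106 and 96.4 TPM to 490, 376, 527 and 416 TPM (2.27, SE 0.12, adjusted p = 1.35e-13 by edgeR). B2m, the light chain of every class I molecule, went from 239, 236, 276 and 244 TPM to 1291, 1076, 1438 and 1127 TPM (2.34, SE 0.13, adjusted p = 5.04e-13 by edgeR). In these 3 genes the lowest day 1 library was replicate 2, which was also the lowest of its group for 8 of the 10 genes. All 10 calls were kept without it. H2-K1 and H2-D1 together held 0.902 ± 0.0657 TPM (SD, n = 4) per TPM of B2m at LPS baseline and 0.82 ± 0.0368 (SD, n = 4) on day 1, with overlapping libraries and no test.

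The subunits of the peptide transporter rose unequally. Tap1 stood at 3.9, 4.88, 4.73 and 3.39 TPM at LPS baseline and at 136, 104, 103 and 119 TPM on day 1, a log2 change of 4.62 (SE 0.16, adjusted p = 1.47e-16 by edgeR). Tap2, its partner in the transporter, went from 12.5, 13.3, 14.1 and 13.7 TPM to 46.6, 28.3, 48.1 and 43.5 TPM (1.66, SE 0.09, adjusted p = 3.41e-13 by edgeR). Tap2 was thus the more abundant transcript in every untreated library and Tap1 in every LPS day 1 library: the Tap1 to Tap2 ratio was 0.248 to 0.367 at LPS baseline and 2.14 to 3.66 on day 1, a description with no test. Tapbp, the loading factor, went from 35.3, 45.1, 45.4 and 48.4 TPM to 269, 178, 266 and 224 TPM (2.48, SE 0.06, adjusted p = 1.34e-18 by edgeR).

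All 3 immunoproteasome subunits rose. Psmb8, the chymotrypsin-like subunit, went from 11, 13, 13.5 and 13.1 TPM to 140, 92.7, 157 and 138 TPM (3.40, SE 0.11, adjusted p = 7.04e-17 by edgeR). Psmb9 went from 4.01, 5.7, 5.33 and 4.42 TPM to 34.8, 28.9, 43.8 and 36.1 TPM (2.73, SE 0.12, adjusted p = 9.13e-15 by edgeR). Psmb10 went from 25, 31.1, 28.3 and 27.5 TPM to 217, 174, 229 and 216 TPM (2.94, SE 0.07, adjusted p = 1.03e-18 by edgeR). The transactivator Nlrc5, the least abundant of the 10 transcripts, went from 0.683, 0.781, 1.14 and 0.457 TPM to 11.4, 10.8, 9.52 and 11 TPM (3.50, SE 0.17, adjusted p = 3.38e-14 by edgeR).

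The pan-leukocyte markers Ptprc, Coro1a and Laptm5 summed to 24.7 to 35.7 CPM at LPS day 1 against 23.7 to 28.9 CPM at LPS baseline, and 1 of the 3 was called higher. Macrophage markers summed to 24.7 to 33.9 CPM against 55.4 to 70.8 CPM, with 1 of 5 called higher and 2 lower. Natural killer markers summed to 1.08 to 1.71 CPM against 0.276 to 0.344 CPM, and neutrophil markers to 5.71 to 9.67 CPM against 0.395 to 0.616 CPM. Endothelial markers summed to 540 to 601 CPM against 597 to 665 CPM (1 of 5 higher and 2 lower). Fibroblast markers summed to 557 to 657 CPM against 459 to 546 CPM (1 of 5 higher and 3 lower). T cell markers summed to 0.547 to 0.707 CPM against 0.879 to 1.48 CPM, pericyte and smooth muscle markers to 496 to 603 CPM against 770 to 884 CPM, and cardiomyocyte markers to 38691 to 45429 CPM against 54220 to 59154 CPM. Of the defining markers, Klre1 was at 0 at LPS day 1 and Ly6g at LPS baseline. Their part in the rise of the 10 genes was not tested. In whole-heart RNA, a change in the number of cells of a type and a change in RNA per cell cannot be told apart.

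**Figure D2:**
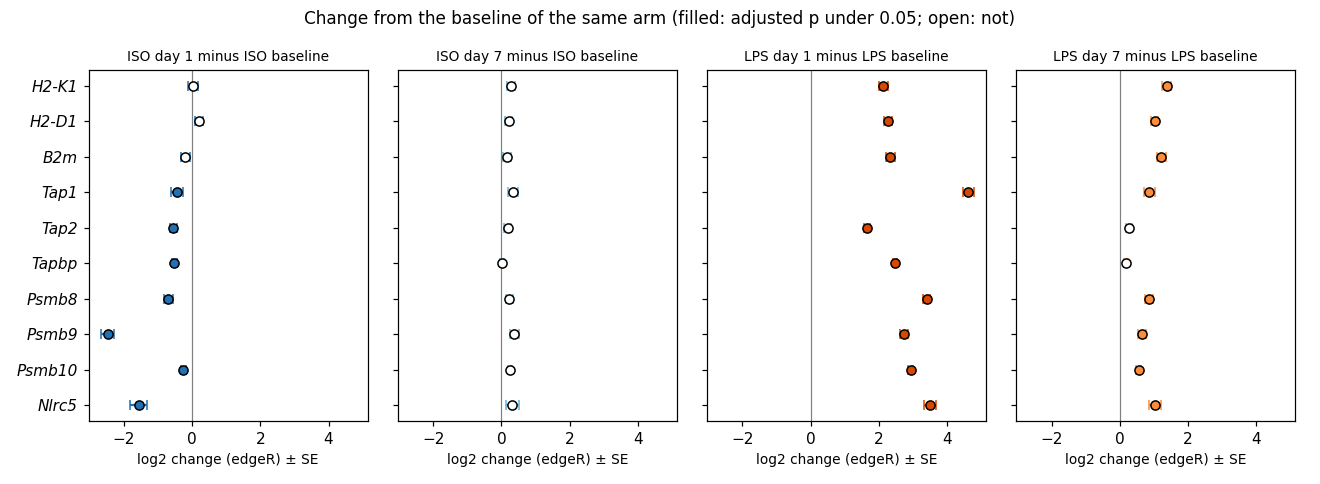
Change of each gene against the baseline of its own arm (log2, edgeR), with bars for the standard error and filled points for adjusted p under 0.05. All 10 points are filled at LPS day 1, 8 at LPS day 7, 7 at ISO day 1 (all below 0) and 0 at ISO day 7.

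On day 1 after isoproterenol, 7 of the 10 genes fell, namely Tap1, Tap2, Tapbp, Psmb8, Psmb9, Psmb10 and Nlrc5, and 0 rose, against 32.8% of all genes called lower and 32.9% called higher. The heavy chains and B2m did not pass the test, and the difference between them and the other 7 was not tested. The median log2 change of the 10 genes was -0.49, beside -0.01 over all genes.

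Psmb9 and Nlrc5 fell most. Psmb9 stood at 4.28, 3.79, 4.67 and 3.88 TPM at ISO baseline and at 0.957, 0.849 and 0.537 TPM on day 1, 18.8% of the baseline mean. Its log2 change was -2.48 (SE 0.19, adjusted p = 1.36e-10 by edgeR), on 17 to 30.1 estimated reads per day 1 library, and the libraries did not overlap. Nlrc5 went from 1.02, 0.727, 0.525 and 0.627 TPM to 0.262, 0.375 and 0.235 TPM (-1.57, SE 0.25, adjusted p = 1.13e-05 by edgeR), again without overlap. On the compressed log2(TPM + 1) scale with limma the changes were -1.54 for Psmb9 and -0.41 for Nlrc5, both still called.

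The other immunoproteasome and loading genes fell by less. Psmb8 went from 9.76, 13, 12.7 and 11.8 TPM to 7.33, 9.42 and 5.74 TPM (-0.70, SE 0.13, adjusted p = 5.32e-05 by edgeR). Tap2 went from 10.3, 11.2, 11.5 and 10.8 TPM to 8.57, 8.3 and 6.3 TPM (-0.56, SE 0.10, adjusted p = 5.04e-05 by edgeR). Tapbp went from 35.9, 36.8, 39.9 and 41.2 TPM to 24.9, 28.2 and 27.5 TPM (-0.53, SE 0.07, adjusted p = 3.31e-07 by edgeR). Every day 1 library lay below every baseline library for these 3 genes.

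Psmb10 and Tap1 lay closest to the threshold. Psmb10 went from 23.1, 25, 27.5 and 28.6 TPM to 22, 23 and 22 TPM (-0.26, SE 0.08, adjusted p = 0.00556 by edgeR), so that the groups all but touched, and limma on log2(TPM + 0.1) gave an adjusted p of 0.155. Tap1 went from 3.79, 3.72, 3.42 and 3.07 TPM to 2.91, 2.71 and 2.79 TPM (-0.45, SE 0.18, adjusted p = 0.0359 by edgeR). The Tap1 call was lost with effective-length offsets (adjusted p = 0.101 by edgeR), with limma on log2(TPM + 0.1) (0.21) or log2(TPM + 1) (0.266), and without ISO baseline replicate 2 (0.0566), ISO baseline replicate 3 (0.0851), ISO day 1 replicate 2 (0.122) or ISO day 1 replicate 3 (0.129).

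The parts of the surface molecule were not called. H2-K1 stood at 100, 112, 132 and 127 TPM at ISO baseline and at 129, 138 and 109 TPM on day 1 (0.02, SE 0.14, adjusted p = 0.928 by edgeR, with a sign that turns under other scalings). H2-D1 stood at 76.6, 84.6, 91.4 and 87.2 TPM and then at 101, 109 and 89.1 TPM (0.19, SE 0.12, adjusted p = 0.168 by edgeR). B2m stood at 242, 273, 264 and 274 TPM and then at 242, 273 and 200 TPM (-0.20, SE 0.14, adjusted p = 0.201 by edgeR). The 95% intervals of the log2 change reached from -0.25 to 0.28 for H2-K1, from -0.05 to 0.43 for H2-D1 and from -0.46 to 0.07 for B2m. With a fit of the compared groups alone, H2-D1 was called higher (adjusted p = 0.0188 by edgeR) and B2m lower (adjusted p = 0.0202 by edgeR). H2-K1 and H2-D1 together stood at 0.721 to 0.843 TPM per TPM of B2m at ISO baseline and at 0.906 to 0.993 on day 1, without overlap and with no test.

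Beside these changes, the pan-leukocyte markers summed to 28.6 to 33.5 CPM at ISO day 1 and 27.1 to 32.9 CPM at ISO baseline, with 1 of 3 called lower. Natural killer markers summed to 0.0417 to 0.136 CPM against 0.185 to 0.778 CPM, with Ncr1 and Gzma at 0 on day 1. Of these, 2 of 5 tested markers were called lower, beside 32.8% of all genes. Over the ISO baseline libraries Ncr1 had 4 reads, Gzma 10 and the T cell marker Cd3e 13, so these markers lay near the floor. Ncr1 and Gzma passed the read filter mainly through LPS day 7. T cell markers summed to 0.5 to 0.851 CPM against 0.727 to 2.07 CPM (2 of 3 tested lower) and neutrophil markers to 3.04 to 7.59 CPM against 0.38 to 0.704 CPM (3 of 4 tested higher). The neutrophil markers passed the read filter mainly through the day 1 groups, where they are high, so their count was partly set by the filter. Endothelial markers, from cells that carry much class I, summed to 723 to 751 CPM against 570 to 638 CPM (2 of 5 higher and 1 lower). Their part in the fall of the 7 genes was not tested.

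The difference between the agents was tested as the LPS change minus the ISO change. At day 1 all 10 genes differed, with a greater change after lipopolysaccharide, against 18.2% of all genes called in that direction and 19.5% in the other. Psmb9 differed by 5.21 on the log2 scale (SE 0.22, adjusted p = 2.21e-14 by edgeR), Nlrc5 by 5.07 (SE 0.30) and Tap1 by 5.06 (SE 0.24), values within an SE of each other. H2-D1 differed least, at 2.08 (SE 0.17, adjusted p = 1.85e-09 by edgeR). The Psmb9 difference combined a rise of 2.73 after lipopolysaccharide with a change of -2.48 after isoproterenol.

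On day 7 after lipopolysaccharide, 8 of the 10 genes were still above baseline, against 5.96% of all genes called higher, and 0 were below it, against 3.13% called lower. The median log2 change of the 10 was 0.86, beside 0.00 over all genes. Among the parts of the presenting molecule, H2-K1 stood at 330, 393, 470 and 314 TPM (1.37, SE 0.13, adjusted p = 3.82e-07 by edgeR), B2m at 523, 697, 872 and 575 TPM (1.21, SE 0.13, adjusted p = 2.22e-06 by edgeR) and H2-D1 at 186, 235, 267 and 195 TPM (1.02, SE 0.11, adjusted p = 5.35e-06 by edgeR). All 4 day 7 libraries lay above all baseline libraries for each of these genes.

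The regulator, the transporter and the immunoproteasome genes stood between 0.19 and 1.03 above baseline on the log2 scale, Tapbp included. Nlrc5 stood at 1.89, 1.74, 2.71 and 1.19 TPM (1.03, SE 0.17, adjusted p = 0.00069 by edgeR) and Tap1 at 8.45, 11.2, 11 and 9.34 TPM (0.87, SE 0.15, adjusted p = 0.000959 by edgeR). Psmb8 stood at 24, 28.6, 30.3 and 23.6 TPM (0.85), Psmb9 at 7.48, 8.51, 11.8 and 8.12 TPM (0.64) and Psmb10 at 43.7, 46.6, 45 and 39.3 TPM (0.55), with adjusted p of 4.25e-05, 0.00261 and 2.97e-05 by edgeR. Tap2 at 17.5, 19.3, 19.3 and 16.5 TPM (0.26, adjusted p = 0.0724 by edgeR) and Tapbp at 62.7, 54.3, 55.2 and 51.2 TPM (0.19, adjusted p = 0.0564 by edgeR) did not pass, although no library of either gene overlapped baseline. Tap2 and Tapbp were both called higher with library totals as the scaling (adjusted p = 0.0178 and 0.0101), with the compared groups alone (0.00458 and 0.0085) and with pooled baselines (0.00552 and 0.00651), all by edgeR. On the log2(TPM + 0.1) scale the median of all genes was itself 0.19 higher at LPS day 7, so TPM levels of that day carry this shift.

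Markers of leukocytes stood higher on day 7 as well. The pan-leukocyte sum was 48.2 to 65.3 CPM against 23.7 to 28.9 CPM at LPS baseline, with 3 of 3 markers called higher. Macrophage markers summed to 95.3 to 111 CPM (4 of 5 higher) and T cell markers to 2.16 to 3.79 CPM against 0.879 to 1.48 CPM (1 of 3 tested higher). Natural killer markers summed to 7.63 to 11 CPM against 0.276 to 0.344 CPM (5 of 5 tested higher). Ncr1 had 95 of its 112 reads and Gzma 416 of its 490 at LPS day 7. Such markers passed the read filter mainly through this group, so the natural killer count was largely set by the filter. Their part in the day 7 levels of the 10 genes was not tested.

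From day 1 to day 7 after lipopolysaccharide all 10 genes fell, against 32.5% of all genes called lower and 33.9% called higher, but the day 7 level kept very different shares of the day 1 level. H2-K1 kept 67.2% of its mean TPM, B2m 54.1%, H2-D1 48.8% and Tap2 43.6%. Psmb9 kept 25.1%, Tapbp 23.9%, Psmb10 20.9%, Psmb8 20.2%, Nlrc5 17.7% and Tap1 8.65%. On the log2(TPM + 0.1) scale the median of all genes was itself 0.185 higher on day 7 than on day 1, against 0.011 in edgeR. The kept shares of TPM carry this shift. The tested changes ran from -0.75 for H2-K1 (SE 0.12, adjusted p = 1.44e-05 by edgeR) to -3.74 for Tap1 (SE 0.15, adjusted p = 2.58e-15 by edgeR). H2-K1 was the exception to a clear separation, as its highest day 7 library (470 TPM) lay above its lowest day 1 library (447 TPM). With the reads of H2-K1, H2-D1 and the other listed class I heavy chain genes summed into 1 feature, the change was -1.23 (adjusted p = 4.74e-09 by edgeR). This is not a second estimate for H2-K1 alone: H2-D1, at -1.25, brought more reads (168132 over all libraries) than H2-K1 (119940).

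On day 7 after isoproterenol, 0 of the 10 genes passed the test in edgeR, as against 0.00636% of all genes, which is 1 gene. The log2 changes ran from 0.02 for Tapbp to 0.38 for Psmb9, with adjusted p of at least 0.709 by edgeR, and 5 of the 10 genes, against 863 of all genes, had an unadjusted p under 0.05. DESeq2 and limma likewise called 0 of the 10. Levels were spread widely: B2m stood at 210, 321, 428 and 284 TPM and Tap1 at 3.35, 4.36, 7.6 and 5.91 TPM, with the highest value of each in replicate 3. Psmb9, at 5.16, 5.47, 6.78 and 6.47 TPM, was the 1 gene of the 10 whose day 7 libraries all lay above baseline. The share of all genes without overlap was not counted.

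Against ISO day 1, 8 of the 10 genes were higher on day 7, where 33.2% of all genes were called higher and 31.9% lower. Psmb9 rose by 2.86 (SE 0.18, adjusted p = 8.41e-12 by edgeR) and Nlrc5 by 1.88 (SE 0.25, adjusted p = 5.8e-07 by edgeR), although the Nlrc5 change was 1.17 with limma on log2(TPM + 0.1) and 0.46 on log2(TPM + 1). H2-K1 (0.27, adjusted p = 0.0859 by edgeR) and H2-D1 (0.02, adjusted p = 0.921 by edgeR) did not pass, and B2m (0.37, adjusted p = 0.0203 by edgeR) lost its call without ISO day 1 replicate 3 (0.106) or ISO day 7 replicate 3 (0.0944). H2-K1 passed without ISO day 7 replicate 1 (adjusted p = 0.0065 by edgeR).

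At day 7 the agents differed for 3 of the 10 genes, against 0.362% of all genes called in that direction and 0.0953% in the other. These were the parts of the surface molecule: H2-K1 by 1.09 (SE 0.18, adjusted p = 0.00352 by edgeR), B2m by 1.04 (SE 0.18, adjusted p = 0.00447 by edgeR) and H2-D1 by 0.81 (SE 0.16, adjusted p = 0.0143 by edgeR). Psmb8 was at 0.61 (SE 0.16, adjusted p = 0.0975 by edgeR) and Nlrc5 at 0.72 (SE 0.26, adjusted p = 0.345 by edgeR). Without ISO day 7 replicate 3, Psmb8 (adjusted p = 0.0392 by edgeR) and Psmb10 (adjusted p = 0.0411 by edgeR) also passed, making 5.

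The immunoproteasome subunits were then set against the constitutive subunits they replace. Psmb5, Psmb6 and Psmb7 each rose a little at day 1 after either agent, by 0.21 to 0.34 on the log2 scale after isoproterenol and 0.26 to 0.31 after lipopolysaccharide, and passed edgeR in both arms. Psmb8 stood at 0.131 to 0.141 TPM per TPM of Psmb5 at LPS baseline and at 0.952 to 1.32 on day 1. In this pair alone the 2 transcripts were then about equal. Psmb10 to Psmb7 went from 0.294 to 0.361 up to 1.77 to 2.11, and Psmb9 to Psmb6 from 0.0274 to 0.0365 up to 0.176 to 0.229. In the ISO arm Psmb9 to Psmb6 went from 0.025 to 0.031 at baseline down to 0.00311 to 0.00548 on day 1.

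Between group means, the log2 ratio changed at LPS day 1 by 3.13 for Psmb8 to Psmb5, 2.63 for Psmb9 to Psmb6 and 2.62 for Psmb10 to Psmb7, and at ISO day 1 by -1.05, -2.68 and -0.47 in that order. At LPS day 7 the changes were 0.97, 0.73 and 0.60. At ISO day 7 they were 0.35, 0.53 and 0.30. Of these 12 ratio comparisons, 11 reached p = 0.02857 by an exact two-sided permutation of the samples (adjusted p = 0.0312 over the 12). That value is the floor for libraries in these numbers, so it does not rank the 11 comparisons. The adjusted value passes only because so many of the 12 share the floor. At ISO day 7 the lowest Psmb8 to Psmb5 ratio (0.142) barely exceeded the highest at ISO baseline (0.14). The share of other gene ratios that reach this floor was not counted. With a library left out, the ISO day 1 comparisons could not pass after adjustment. Psmb8 to Psmb5 at ISO day 7 passed in 3 of 8 and Psmb9 to Psmb6 at LPS day 7 in 4 of 8 such repeats. The exception was Psmb10 to Psmb7 at ISO day 7 (exact p = 0.1143, adjusted p = 0.114).

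**Figure D3:**
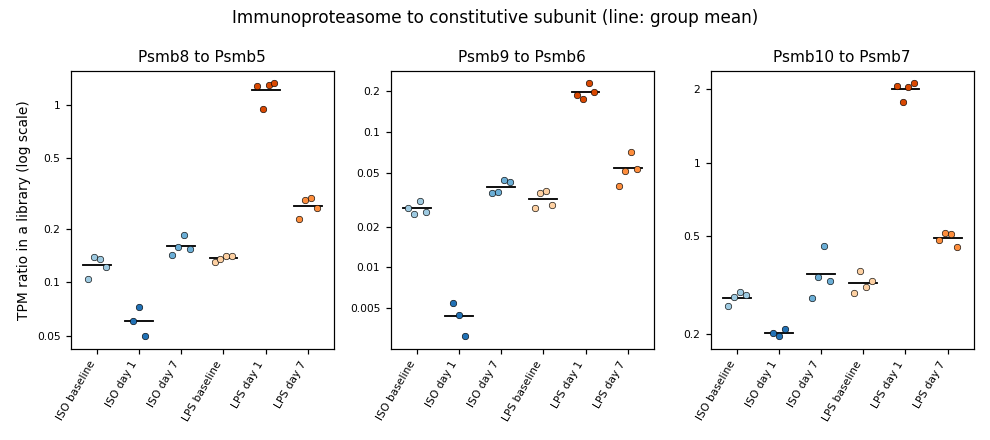
Ratio of each immunoproteasome subunit to the constitutive subunit it replaces (TPM per TPM, log scale) in each library, with a line for the group mean. ISO day 1 libraries lie lowest and LPS day 1 libraries highest in all 3 panels, with LPS day 1 means of 1.21, 0.198 and 1.99.

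Ratios within the pathway, chosen after the levels were seen and so given with no test, set the groups apart in several ways. Tap1 and Psmb9, the head-to-head pair, stood near parity at baseline, with Tap1 to Psmb9 ratios of 0.733 to 0.98 in the ISO arm and 0.765 to 0.971 in the LPS arm. At ISO day 1, where the log2 changes were -2.48 for Psmb9 and -0.45 for Tap1, the ratio was 3.04 to 5.2. At LPS day 1, where they were 2.73 and 4.62, it was 2.36 to 3.9. By day 7 it was 0.65 to 1.12 in the ISO arm and 0.925 to 1.31 in the LPS arm. H2-K1 stood at 27.4 to 37.5 TPM per TPM of Tap1 at LPS baseline, 4.32 to 6.53 on day 1 and 33.6 to 42.9 on day 7. Set against Tapbp, H2-K1 was at 2.62 to 3.2 at LPS baseline and at 5.27 to 8.52 on LPS day 7, with no overlap. Tapbp levels carry the limit that 23.2% of its transcript 50-base words also occur in other genes, 20.3% in the antisense gene Gm19412.

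**Figure D4:**
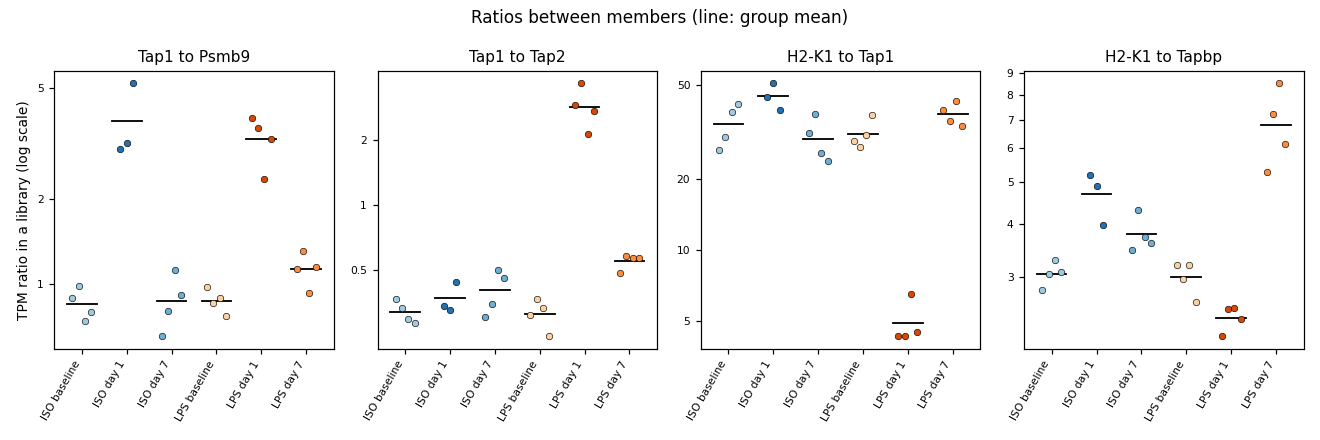
Ratios between genes of the set (TPM per TPM, log scale) in each library, with a line for the group mean. Tap1 to Psmb9 is high on day 1 of both arms (means of 3.81 and 3.29), H2-K1 to Tap1 is low at LPS day 1 alone (mean 4.92), and H2-K1 to Tapbp is highest at LPS day 7 (mean 6.79).

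The lists that follow are counted beside the shares of all genes, which were 33.2% higher and 33% lower at LPS day 1, 32.9% and 32.8% at ISO day 1, and 5.96% and 3.13% at LPS day 7. Further class I heavy chain genes, which include the nonclassical Q, T and M genes, moved with the 10 genes after lipopolysaccharide. Of 17 listed, 10 had enough reads to be tested, and 9 of these rose at LPS day 1, with a median log2 change of 2.47. Over the 23 libraries H2-Q10 had 219.3 reads, H2-T10 572.2 and H2-K2 577.4. The count of 9 may therefore be partly set by the filter. H2-T23, the mouse Qa-1 chain that natural killer receptors read, rose by 2.88 (adjusted p = 3.74e-16 by edgeR) and H2-Q4 by 2.82 (adjusted p = 2e-14 by edgeR), and H2-T22 rose by 2.39 and H2-Q6 by 2.86. At LPS day 7, 7 of 10 were higher, among them H2-T22 (0.98) and H2-Q7 (1.23). At ISO day 1, 3 of 10 fell, H2-T23 (-1.25, adjusted p = 7.67e-09 by edgeR), H2-T24 (-1.61) and H2-M3 (-0.75), and 1 rose, H2-Q10, which lost its call without ISO day 1 replicate 2 (adjusted p = 0.104 by edgeR).

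Shares of the summed heavy chain TPM moved with these changes. H2-K1 held 45.3% ± 0.478 (SD, n = 4) at LPS baseline, 40.4% ± 0.716 (SD, n = 4) on day 1 and 52.2% ± 0.982 (SD, n = 4) on day 7. H2-T23 held 4.92% ± 0.25 (SD, n = 4), 7.27% ± 0.807 (SD, n = 4) and 2.98% ± 0.393 (SD, n = 4) in that order, while in the ISO arm its share went from 5.04% ± 0.24 (SD, n = 4) in untreated mice to 2.08% ± 0.427 (SD, n = 3) on day 1. Between near-identical heavy chain genes the split of estimated reads is uncertain: 9.63% of the 50-base words of H2-K1 and 12.8% of those of H2-D1 occur in another gene.

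Of 8 peptide loading and trimming genes, 3 rose and 3 fell at LPS day 1, shares near those of all genes. The tapasin-related editor Tapbpl rose by 3.36 (adjusted p = 1.16e-16 by edgeR) and the trimming peptidase Erap1 by 1.17 (adjusted p = 1.57e-14 by edgeR), while the chaperone Canx (-0.39) and the peptidase Npepps (-0.48) fell. At ISO day 1, 2 rose and 3 fell, with Pdia3 at 0.46, Thop1 at 0.46 and Npepps at -0.66. Erap1 was at -0.63 (adjusted p = 5.46e-09 by edgeR) there, a call lost with effective-length offsets (0.178) and with limma on log2(TPM + 0.1) (0.263). Of 9 proteasome activator and assembly genes, 5 rose and 3 fell at LPS day 1. Psme1 and Psme2, which form the interferon-linked PA28 cap, rose by 1.35 and 1.68, the assembly factor Pomp rose by 0.84 and Psmg4 by 1.01. At ISO day 1, 2 rose and 5 fell, among them Psme3 at 0.61, Psme1 at -0.49, Psme4 at -0.72 and Psmg1 at -1.03.

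Transcription factors of class I promoters were called in either direction for 14 of 17 at LPS day 1, with 11 higher and 3 lower. Stat2 rose by 2.80, Irf1 by 2.72, Irf8 by 2.73, Irf9 by 1.45 and the X-box factor Rfx5 by 1.52, while Creb1 fell by 0.97 and Nfya fell by 0.84. Rfxank was at 0.58, but at -0.10 with effective-length offsets. At ISO day 1, 6 of 17 rose and 5 fell, shares near those of all genes: Stat2 was at -0.74, Irf9 at -0.51, Rfx5 at -0.58 and the class II transactivator Ciita at -2.58, with Rela at 0.94 and Rfxank at 1.71 among those that rose. At LPS day 7, 4 of 17 were higher, among them Irf8 (0.61), Irf9 (0.45) and Ciita (1.05), and these 3 lost their calls with effective-length offsets (adjusted p = 0.143, 0.0512 and 0.103 by edgeR), Irf9 also without LPS day 7 replicate 3 (0.0564).

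Of the interferon ligands, Ifng and Ifnb1 were the 2 listed, and both were barely detected. Ifng had 2 reads over the 4 LPS day 1 libraries and 9 over the 4 LPS day 7 libraries, and Ifnb1 had 1 read over all groups, in ISO baseline. Of the 10 tested genes of the interferon ligand, receptor and signalling list, 7 rose and 2 fell at LPS day 1: the feedback protease Usp18 rose by 4.33, Socs3 by 3.64 and the receptor chain Ifnar2 by 0.88, while the receptor chain Ifngr2 fell by 1.57. Ifngr2 was at -1.53 at ISO day 1 as well (adjusted p = 9.36e-14 by edgeR). Class I receptors of lymphocytes and myeloid cells were tested for 4 of 9 genes, and all 4 were called higher at LPS day 1 and at LPS day 7. Klrk1, with 126 of its 159 reads at LPS day 7, and Cd8a passed the read filter mainly through the treated LPS groups. The count of 4 was therefore partly set by the filter. The Lilrb4a call at LPS day 7 (1.16) was lost with any of the 8 libraries left out (adjusted p = 0.0514 to 0.129 by edgeR), and at LPS day 1 (1.00) without LPS day 1 replicate 1 (0.0543). The Klrk1 call at LPS day 1 (2.59) was lost with pooled baselines (0.0729) and without LPS baseline replicate 3 (0.0774), LPS baseline replicate 4 (0.0766) or LPS day 1 replicate 1 (0.127). The inhibitory receptor Pirb rose by 2.35 on day 1 and 1.13 on day 7, and Cd8a, which pairs with class I on T cells, by 2.23 and 2.69, on 33 and 48 reads over each group against 7 at baseline.

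Of 4 class I-like genes tested, 1 rose and 2 fell at LPS day 1, too few to set against the shares of all genes. Hfe, the iron-regulating class I-like protein, rose by 1.30 (adjusted p = 5.17e-13 by edgeR), and Fcgrt, the neonatal Fc receptor chain that also pairs with beta-2 microglobulin, fell by 1.28 (adjusted p = 4.25e-13 by edgeR). Mr1, which presents vitamin metabolites, was at -0.50 (adjusted p = 0.000208 by edgeR). At ISO day 1, 3 of 4 fell, with Fcgrt at -1.07, Mr1 at -0.97 and Cd1d1 at -0.71. Cd1d1 no longer passed when ISO baseline replicate 3 (adjusted p = 0.0553 by edgeR), ISO day 1 replicate 1 (0.0958) or ISO day 1 replicate 2 (0.073) was left out.

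Across the 23 libraries, which share their 6 groups, the log2 CPM of pairs of the 10 genes had Pearson correlations of 0.788 (H2-D1 with Psmb9) to 0.994 (Tap1 with Psmb10), given as a description. Among all other tested genes, the 10 most like the mean of the set were Igtp and Irgm2 (r = 0.990 each), Irf7 (0.989), H2-Q4 and Ifit3b (0.987 each), C1ra and Gm12250 (0.985 each), Batf2 (0.984), and Parp10 and Tor3a (0.983 each). Igtp, an immunity-related GTPase, stood at means of 7.36 TPM at LPS baseline, 859 TPM on day 1 and 34.1 TPM on day 7, and at 2.18 TPM at ISO day 1 against 6.78 TPM at ISO baseline.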

How the data were processed

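The members and gene lists were chosen with earlier results of these data known. Total RNA of 23 whole hearts was sequenced after poly-A selection, and DRAGEN, bcl2fastq, limma, edgeR and the mm10 build appear in the submitters' processing notes. Which annotation and which strand setting were used is not given in the sources used here. Per the file headers, the authors deposited for each gene of each library an effective length, TPM and an estimated count of reads. Of 55487 gene identifiers, 55141 matched GENCODE M21 symbols, and the others held at most 0.0146% of reads in any library. Of the estimated counts, 9.5% were not whole, so counts were rounded.

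Counts were filtered with a minimum count of 10, scaled by TMM and fitted over all 6 groups with edgeR 4.0.16 in R 4.3.3 (quasi-likelihood test, Benjamini-Hochberg adjustment over all 15732 genes, calls at 0.05), after the test had been checked on simulated data. Depth was 20910393 to 30368985 estimated reads, and groups of 3 or 4 libraries limit the precision. Differences between the agents were contrasts of that fit. Ratios of TPM were tested by exact permutation with scipy 1.17.1. Alternatives were RLE scaling, library totals, no count filter, a minimum count of 50, the compared groups alone, pooled baselines, effective-length offsets, a replicate block, DESeq2 1.42.0, limma 3.58.1 on log2(TPM + 0.1) or log2(TPM + 1), summed heavy chain genes, ratios of counts, and leaving out each library in turn.

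Named were the 10 members, up to 4 called genes of smallest adjusted p per pathway list and comparison (any gene of the constitutive subunits and transcription factors), and the 10 genes with the highest Pearson correlation to the members' mean. Interferon genes without a test are named by their reads. A gene of the transcription factor list is counted but not reported here by name. Positions come from GENCODE M21 (GRCm38) and promoters from RefSeq (GRCm38.p6). Motifs were searched on both strands of the 250 bases before each start.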

Additional observations from a re-analysis of the deposited data

Results flagged for a closer look

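The change after lipopolysaccharide exceeded the change after isoproterenol in an edgeR contrast of the changes themselves for all 10 genes on day 1 and for 3 of them on day 7. On day 1 the log2 differences were 2.11 for H2-K1, 2.08 for H2-D1, 2.54 for B2m, 5.06 for Tap1, 2.22 for Tap2 and 3.00 for Tapbp. The same difference was 4.10 for Psmb8, 5.21 for Psmb9, 3.20 for Psmb10 and 5.07 for Nlrc5. On day 7 it was 1.09 for H2-K1, 0.81 for H2-D1 and 1.04 for B2m, which together make up the surface molecule. Each arm had its own baseline, so the agent and the arm cannot be told apart beyond the comparison of untreated groups, in which 0 of the 10 genes was called. In 50 groups of 4 libraries (10 genes, 5 groups), 0 had a library that Dixon's criterion sets apart, where chance alone gives about 1 in 20.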

How the results depend on the processing

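Of 1808 values of the 10 genes under other settings, 1754 kept their direction and their side of the threshold, 13 lost a call, 18 gained one and 23 changed sign. For 3820 values of called pathway genes these were 3684, 128, 0 and 8, and for 105 values of subunit ratios 74, 30, 1 and 0. The summed heavy chain feature is counted among the values of both H2-K1 and H2-D1. All sign changes of the 10 genes were of values near 0 that were not called. H2-K1 at ISO day 1 was at -0.00 with library totals and with pooled baselines, at -0.01 with a minimum count of 50, and between -0.03 and 0.10 with a library left out. Tapbp at ISO day 7 was at -0.01 with pooled baselines and between -0.02 and 0.07 with a library left out. H2-D1 from ISO day 1 to day 7 ran from -0.11 to 0.12 with a library left out. Psmb8 between baselines was at 0.00 with RLE scaling, no count filter, compared groups alone or DESeq2, at 0.02 with library totals, 0.05 with effective-length offsets, 0.10 and 0.09 with limma on TPM, and from -0.04 to 0.06 with a library left out. Rfxank was at -0.10 with effective-length offsets and -0.15 and -0.13 with limma at LPS day 1, and at 0.17 and 0.15 with limma from LPS day 1 to day 7. Lnpep from LPS day 1 to day 7 was at 0.01 with library totals and 0.06 with limma. The cause of these shifts was not tested.

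Counts moved more than single genes. With the compared groups alone, 1 of the 10 genes was higher at ISO day 1. The number of the 10 genes lower at ISO day 1 was 6 with effective-length offsets, 5 with limma, 8 with compared groups alone and 6 to 7 with a library left out. The number higher was 7 to 9 from ISO day 1 to day 7 and 3 to 5 for the day 7 difference between agents with a library left out. At LPS day 7 all 10 were higher with library totals, compared groups alone or pooled baselines. The 1 gene of all genes called at ISO day 7 became 0 with library totals, compared groups alone or limma, 2 with no count filter or DESeq2, 3 with pooled baselines and 0 to 1 with a library left out. The 1431 genes called at LPS day 7 became 2511 with library totals, 2600 with compared groups alone, 2242 with pooled baselines and 621 to 1198 with a library left out, the lowest without LPS day 7 replicate 3. The 191 genes between baselines became 701 with compared groups alone, 316 with DESeq2 and 107 to 139 with a library left out. The 72 genes of the day 7 difference became 141 with DESeq2, 112 with limma on log2(TPM + 1) and 40 to 320 with a library left out, the highest without ISO day 7 replicate 3. Library totals moved the median of all genes by 0.16 at LPS day 7, where 2421 genes were higher and 90 lower against 938 and 493 with TMM, and 1822 and 48 or 2003 and 49 with limma. From LPS day 1 to day 7, 6776 were higher and 3584 lower with library totals, and 6646 and 3100 or 6592 and 3210 with limma, against 5336 and 5108. For the day 7 difference these were 93 and 48 with DESeq2 and 85 and 3 or 109 and 3 with limma, against 57 and 15. Between baselines they were 75 and 116 with TMM, against 115 and 113 or 113 and 115 with limma.

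Subunit ratios kept their sign with any library left out. Psmb8 to Psmb5 ran from -1.18 to -0.92 at ISO day 1, 0.27 to 0.41 at ISO day 7, 3.09 to 3.24 at LPS day 1 and 0.92 to 1.05 at LPS day 7. Psmb9 to Psmb6 ran from -2.87 to -2.46, 0.48 to 0.60, 2.56 to 2.69 and 0.58 to 0.86 in that order. Psmb10 to Psmb7 ran from -0.51 to -0.45, 0.17 to 0.40, 2.58 to 2.68 and 0.56 to 0.66. Same-numbered libraries did not deviate together (correlations of -0.12 to 0.08), so no pairing by replicate number was seen. With groups of 3 or 4 libraries this check cannot exclude one. The replicate block left the counts of the 10 genes as they were, with 10254 genes called at ISO day 1, 1423 at LPS day 7 and 62 for the day 7 difference. Depth limits Nlrc5 and Psmb9 at ISO day 1, where libraries held 16 to 43 reads of either.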
